A study of Mus musculus with 18 samples.

Results

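Genes of the tripartite motif (TRIM) family were followed through the response of mouse plasmacytoid dendritic cells (pDCs) to imiquimod. Every protein-coding gene whose symbol is Trim followed by a digit was taken, which gave 68 of the 54532 genes of the deposited count table. The pDCs had been grown from wild-type C57BL/6 bone marrow for 7 days with the cytokine Flt3L at 80 ng/mL and enriched on beads through B220, to a usual purity of 80%. The 6 groups of 3 RNA-seq libraries were cells given 2.5 µg/mL imiquimod, which activates the single-stranded RNA receptor TLR7, for 6 h or 16 h, cells given the vehicle for 0, 6 or 16 h, and untreated cells at 0 h. The vehicle is labelled LAL, which stands for Limulus amebocyte lysate, and whether it was the lysate itself or reagent water is not stated. The series concerns the killing of tumor cells by pDCs activated in this way. Separate mice or cultures behind the 3 libraries of each group are not stated in the labels, so p-values describe the variation among these particular libraries and that variation may be purely technical.

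Most TRIM proteins carry a RING domain, B-boxes and a coiled coil, and act as E3 ubiquitin ligases that attach ubiquitin to chosen partner proteins. A variable domain at the C-terminus, most often PRY-SPRY, recognises the partner. Many family members are induced by interferon, bind viral components or tune the sensors of foreign RNA and DNA, and a separate branch with PHD and bromodomains acts on chromatin. Plasmacytoid dendritic cells are known for releasing type I interferon when TLR7 or TLR9 is engaged.

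The libraries held 10609741 to 13447018 counts each. Values below are CPM, counts scaled to library sizes adjusted by TMM, and a gene was called when edgeR's quasi-likelihood test, fitted on all 18 libraries, gave a Benjamini-Hochberg adjusted p under 0.05 over the 14876 genes that passed the filter on low counts. All 11 pDC markers, among them Siglech and Bst2, were detected, and their summed level was 5774 to 6004 CPM with imiquimod at 6 h, against 6313 to 6366 CPM with vehicle, and 4093 to 4183 CPM with imiquimod at 16 h, against 7678 to 7763 CPM with vehicle. At 6 h the sum and the single markers differed, since 7 of the 11 were called higher and 4 lower, while at 16 h 2 were higher and 7 lower. For this and the other marker counts, 37.7% of all tested genes were called higher and 39.2% lower at 6 h. The shares at 16 h were 39.1% and 38.1%. All 6 markers of conventional dendritic cells of type 2 were also detected in every vehicle group, and their summed level was 222 to 223 CPM with imiquimod at 6 h, against 1511 to 1671 CPM with vehicle. At 16 h it was 152 to 153 CPM with imiquimod, with Cd209a at 0, against 1984 to 2044 CPM with vehicle. All 6 type 2 markers were called lower at 6 h, and 5 were lower and 1 higher at 16 h. The summed levels for type 1 conventional dendritic cells and monocytes were lower with imiquimod as well, at 542 to 570.4 CPM against 1364 to 1379 CPM and at 145 to 149 CPM against 351 to 391.7 CPM at 6 h. All 6 type 1 markers were called lower, but of the 6 monocyte markers 4 were lower and 2 higher at 6 h, and 3 lower and 2 higher at 16 h. The 6 B cell markers summed to 171 to 185 CPM with imiquimod at 6 h, against 108 to 118 CPM with vehicle, although 4 of the 6 were called lower and 2 higher. T and NK cell and neutrophil markers summed to under 5 CPM in every library. The part of these cells in the TRIM values was not tested, and in bulk RNA fewer cells of a type cannot be told apart from less RNA per cell.

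Of the 68 TRIM genes, 41 passed the filter and 27 did not. Those that did not included 9 with 0 counts in all 18 libraries (Trim9, Trim15, Trim29, Trim31, Trim42, Trim52, Trim54, Trim60 and Trim61). The largest totals among the other untested genes were 83 counts for Trim2, 77 for Trim17, 60 for Trim47, 56 for Trim69, 47 for Trim66 and 29 for Trim72, and the remaining 12 had 1 to 14 counts each. Trim6, Trim34b and Trim43b reached the filter's level in all 3 libraries only of imiquimod groups, and Trim67 only of the 0 h groups, so their presence among the tested genes depends on the groups where they are high. Levels are compared between genes only per kilobase of exon. On that scale, Trim30a led the family at 126 CPM per kb over the mean of the 6 groups, followed by Trim30d at 59.6, Trim28 at 51.0, Trim25 at 49.4 and Trim12c at 26.9 CPM per kb. In the vehicle at 0 h the order was different, with Trim28, the chromatin corepressor, at 52.9 CPM per kb, Trim30a at 48.6 and Trim25 at 44.7 CPM per kb. Before division by length, the 3 libraries put Trim28 at 235, 216 and 209.9 CPM and Trim30a at 205, 199 and 197 CPM.

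Imiquimod changed most of the measured family in both directions. At 6 h, 18 of the 41 tested TRIM genes rose and 18 fell, 87.8% of them, where 76.9% of all tested genes were called, 37.7% higher and 39.2% lower. At 16 h, 20 rose and 17 fell, 90.2% of them, against 77.2% of all tested genes, 39.1% higher and 38.1% lower. The median log2 fold change of the 41 genes was 0.055 at 6 h and 0.17 at 16 h, with -0.037 and -0.0033 over all tested genes. Changes of at least 2-fold were made upward by 13 TRIM genes and downward by 8 at 6 h, and by 8 and 6 at 16 h. Since most tested genes were called, a call alone sets no TRIM gene apart, and what follows turns on which members moved, by how much and when. With libraries scaled by their totals, 18 TRIM genes were higher and 22 lower at 6 h, and over all tested genes 3704 were higher and 8222 lower, in place of 5602 and 5837.

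Across both times, 15 TRIM genes were higher at 6 h and at 16 h and 14 were lower at both. Trim28, Trim32 and Trim37 were lower at 6 h and higher at 16 h, and Trim36 was higher at 6 h and lower at 16 h. Trim5 and Trim34b were called higher at 6 h alone, Trim39 lower at 6 h alone, Trim27 and Trim44 higher at 16 h alone, and Trim33 and Trim62 lower at 16 h alone. With libraries scaled by their totals, Trim27, Trim33, Trim44 and Trim62 were called lower at 6 h. Trim13, which encodes a ligase of the endoplasmic reticulum membrane, was called at neither time, with log2 fold changes of 0.065 (SE 0.23) and 0.23 (SE 0.22). The effect at 16 h minus that at 6 h was itself called for 30 of the 41 genes (73.2%), 13 higher and 17 lower, where 56.9% of all tested genes were called, 28.5% higher and 28.4% lower. Scaled by library totals, 18 TRIM genes were higher and 13 lower for this difference, and over all tested genes 6951 and 2257, in place of 4246 and 4222. The calls at 16 h of Trim32, Trim45, Trim62 and Trim68 were weak, with edgeR adjusted p = 0.0433, 0.0236, 0.0172 and 0.0285, and each was lost when at least 1 single library was left out, in every case including replicate 2 of the vehicle at 16 h. Without that library, the adjusted p was 0.196 for Trim32, 0.0579 for Trim45, 0.107 for Trim62 and 0.0947 for Trim68.

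**Figure D1:**
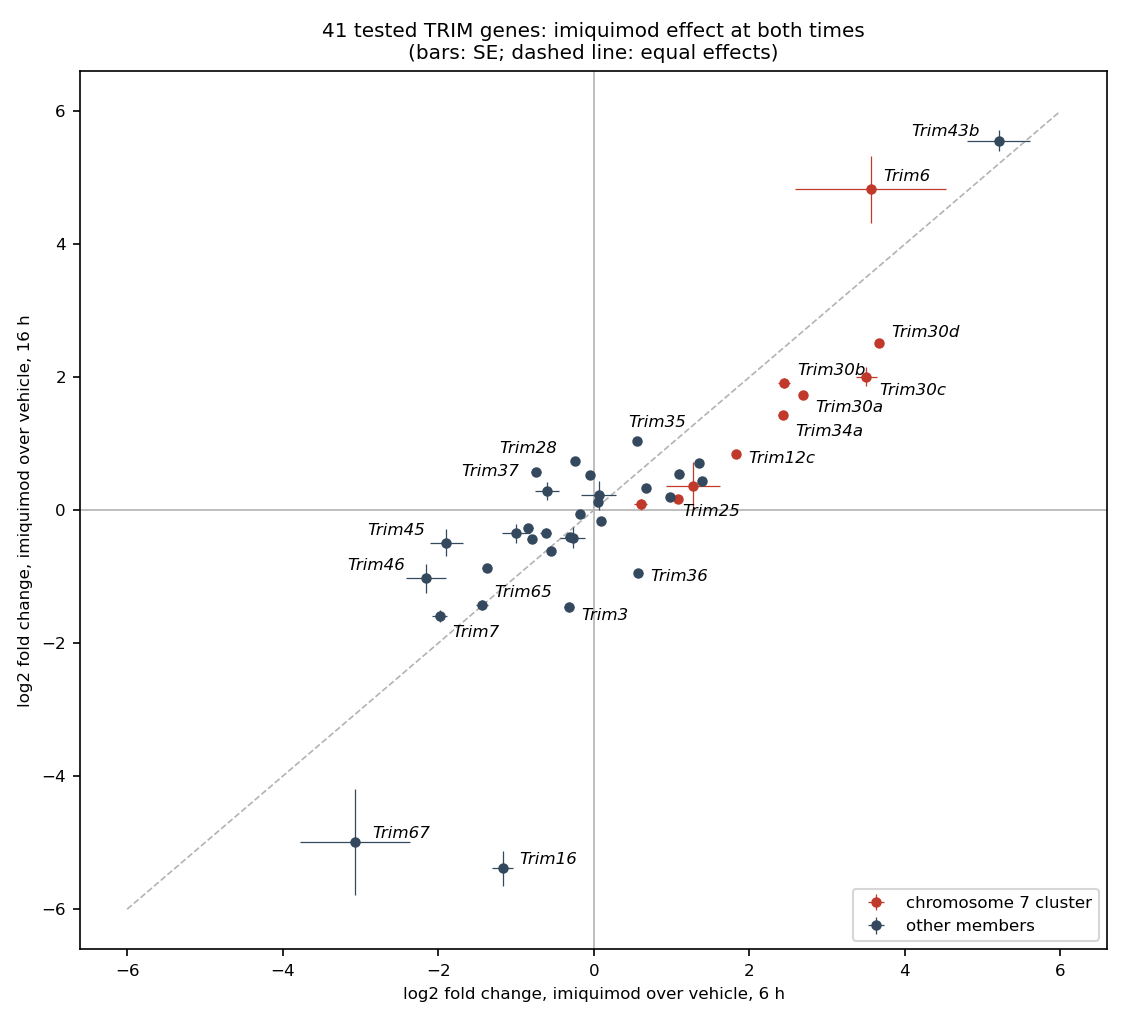
Log2 fold change of imiquimod over vehicle at 6 h (horizontal axis) and at 16 h (vertical axis) for the 41 tested TRIM genes, with the standard error as bars and a dashed line where both effects are equal. Genes of the chromosome 7 cluster (red) lie right of zero, most of them below the dashed line, Trim43b lies at the top right, Trim16 at -1.17 and -5.39 and Trim36 at 0.57 and -0.94.

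Of the 18 TRIM genes that were higher at 6 h, 10 lie in 1 genomic cluster. Members lying within 1 Mb of the next on mouse chromosome 7 (GRCm38) formed a cluster of 10 TRIM genes in 289 kb, from 104218793 to 104507849, in the order Trim6, Trim34a, Trim5, Trim12a, Trim34b, Trim12c, Trim30b, Trim30c, Trim30a and Trim30d. All 10 were called higher at 6 h, with a median log2 fold change of 2.44, and 8 at 16 h, with a median of 1.58. Trim6 and Trim34b, which passed the filter only through imiquimod libraries, are among the 10. Outside the cluster, 8 of the 31 tested TRIM genes were higher and 18 lower at 6 h (median -0.31), and 12 were higher and 17 lower at 16 h (median -0.27). Of the 10 cluster genes, 8 had a smaller effect at 16 h than at 6 h by the test of the difference, and Trim6 and Trim34b were not called for it. Over all tested genes, 28.4% were called lower for the difference. With libraries scaled by their totals, edgeR did not call the difference for Trim5 (adjusted p = 0.169) or Trim30b (adjusted p = 0.145).

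The promoter sequences of Trim30a, Trim30d, Trim30c and Trim34a are shown because these genes moved together and their upstream regions can be compared. Each is the RefSeq window of 250 bases before to 50 bases after a transcription start, on GRCm38.p6, read 5′ to 3′ along the gene. Capitals mark matches to the core of the interferon-stimulated response element (ISRE), searched as GAAANNGAA on both strands; a match on the opposite strand is printed as its reverse complement.
Trim30a, chr7:104465144-104465443, minus strand: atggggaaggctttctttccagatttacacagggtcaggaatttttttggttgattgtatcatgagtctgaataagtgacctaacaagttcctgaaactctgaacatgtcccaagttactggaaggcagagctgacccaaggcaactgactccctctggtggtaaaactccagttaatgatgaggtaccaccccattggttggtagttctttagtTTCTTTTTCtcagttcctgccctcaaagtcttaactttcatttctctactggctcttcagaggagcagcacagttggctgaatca
Trim30d, chr7:104507800-104508099, minus strand: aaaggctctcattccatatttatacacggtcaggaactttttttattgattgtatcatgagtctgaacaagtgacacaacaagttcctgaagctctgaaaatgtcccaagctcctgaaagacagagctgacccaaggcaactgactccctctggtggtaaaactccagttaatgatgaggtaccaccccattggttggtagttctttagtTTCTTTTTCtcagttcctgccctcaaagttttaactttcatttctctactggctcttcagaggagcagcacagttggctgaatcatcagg
Trim30c, chr7:104400729-104401028, minus strand: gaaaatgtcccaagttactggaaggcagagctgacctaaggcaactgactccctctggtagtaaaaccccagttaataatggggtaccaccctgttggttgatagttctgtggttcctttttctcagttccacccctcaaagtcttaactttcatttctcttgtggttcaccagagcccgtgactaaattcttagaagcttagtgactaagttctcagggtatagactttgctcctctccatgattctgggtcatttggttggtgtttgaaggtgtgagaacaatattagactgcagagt
Trim34a, chr7:104244207-104244506, plus strand: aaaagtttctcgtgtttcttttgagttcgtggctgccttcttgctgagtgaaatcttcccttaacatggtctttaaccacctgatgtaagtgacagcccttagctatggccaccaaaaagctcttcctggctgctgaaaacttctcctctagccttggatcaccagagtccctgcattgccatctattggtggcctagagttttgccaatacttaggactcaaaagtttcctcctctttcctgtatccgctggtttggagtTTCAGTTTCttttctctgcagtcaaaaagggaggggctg
The match began 35 bases upstream of the start in Trim30a and 40 bases upstream in Trim30d, and the 29 bases made of the match and 10 bases on each side were identical between them. The most similar stretch of the Trim30c window shared 24 of those 29 bases and carried the substitution T2C within the match, counted from 1 at the 5′ end of the Trim30a match as printed, so it was not counted as a match. A second Trim30a window in the table, at another start, held a match as well. In Trim34a the match lay 11 bases downstream of the start.

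Over the family, 53 of the 68 genes had a RefSeq window, 67 windows in all, and 13 of the 67 (19.4%) held the ISRE core, against 8.56% of all 32851 windows. In the cluster, 7 of the 10 genes had a match: Trim5, Trim12a, Trim12c, Trim30a, Trim30d, Trim34a and Trim34b. Of the 11 tested TRIM genes with a match, 10 were higher and 1 lower (Trim7) with imiquimod at 6 h, and 8 were higher and 1 lower at 16 h. Of the 20 tested genes with a window and no match, 4 were higher and 12 lower at 6 h, and 9 were higher and 9 lower at 16 h. The 4 without a match that rose at 6 h were Trim6, Trim30b, Trim30c and Trim56. Trim34b with a match, and Trim6 without one, passed the filter only through imiquimod libraries, and over all tested genes 37.7% were higher and 39.2% lower at 6 h and 39.1% and 38.1% at 16 h, so the counts are a description of the tested genes. The core of the interferon-gamma activated sequence, TTCNNNGAA, was held by 10.45% of the TRIM windows and 8.30% of all windows. A match is a description of these letters, and the absence of one says nothing about any factor.

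Trim30a (ENSMUSG00000030921.17, chromosome 7, 104409025 to 104465193), which in mouse restrains TLR signalling by promoting loss of TAB2 and TAB3, had the highest level per kilobase in the family over the mean of the 6 groups, though not in either 0 h group. It had 1386, 1406 and 1399 CPM with imiquimod at 6 h, against 219, 209 and 223 CPM with vehicle. At the later time Trim30a had 837, 847 and 856 CPM with imiquimod, against 244, 245 and 278 CPM with vehicle. All 6 imiquimod libraries lay above all 12 others, and the 6 h libraries above the 16 h libraries. The log2 fold change was 2.69 (SE 0.036, adjusted p = 1.18e-70) at 6 h and 1.73 (SE 0.035, adjusted p = 2.11e-57) at 16 h, and the difference between them was -0.96 (SE 0.049, adjusted p = 1.08e-29) by edgeR.

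Trim30d (ENSMUSG00000057596.13, chromosome 7, 104470014 to 104507849), a neighbouring paralog, moved most among the well-counted cluster genes. It had 668, 689.8 and 687 CPM with imiquimod at 6 h, against 54.0, 52.3 and 54.8 CPM with vehicle, and 417, 419 and 428 CPM with imiquimod at 16 h, against 65.9, 69.3 and 85.3 CPM with vehicle. The groups did not overlap at either time. The log2 fold change was 3.67 (SE 0.051, adjusted p = 6.37e-39) at 6 h and 2.52 (SE 0.05, adjusted p = 1.32e-33) at 16 h by edgeR. Trim30c, a shorter paralog of low level, had 28.5, 35.2 and 28.0 CPM with imiquimod at 6 h, against 2.72, 2.31 and 3.04 CPM with vehicle, and 16.5, 12.6 and 16.5 CPM at 16 h, against 4.41, 3.37 and 3.57 CPM. Its imiquimod libraries again all lay above the vehicle libraries, with log2 fold changes of 3.51 (SE 0.13) and 2.01 (SE 0.14). Trim30b had 75.8, 72.4 and 66.8 CPM with imiquimod at 6 h, against 15.4, 10.7 and 13.2 CPM with vehicle, and 57.0, 58.6 and 63.8 CPM at 16 h, against 15.6, 14.1 and 17.8 CPM. Its groups did not overlap at either time, with log2 fold changes of 2.45 (SE 0.078) and 1.91 (SE 0.077). Of the 75-base windows of Trim30a exons, 4.98% also occur in Trim30d, so reads of those windows may have been assigned to either gene or dropped. How far this moves the values of Trim30a and Trim30d is not known.

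The other 6 cluster genes resemble primate TRIM5, TRIM34 and TRIM6. Trim34a, a relative of the primate restriction cofactor TRIM34, had 141, 146 and 146 CPM with imiquimod at 6 h, against 28.2, 23.6 and 28.6 CPM with vehicle, and 85.8, 86.5 and 90.5 CPM at 16 h, against 33.1, 30.6 and 33.4 CPM. No imiquimod library reached down to a vehicle library, and the log2 fold changes were 2.43 (SE 0.056) and 1.44 (SE 0.057). Of its 75-base windows, 29.5% also occur in Trim34b, so their values are uncertain where the counting could split reads. Trim34b was at most 2.42 CPM in any library and was called at 6 h only, with a log2 fold change of 1.27 (SE 0.34). Trim12c, Trim12a and Trim5 are mouse relatives of primate TRIM5, which blocks incoming retroviral capsids. Trim12c had 231, 235 and 232 CPM with imiquimod at 6 h, against 67.0, 62.8 and 66.4 CPM with vehicle, and 130.0, 131 and 132 CPM at 16 h, against 72.5, 70.6 and 76.7 CPM. Trim12a had 179.7, 175 and 166 CPM with imiquimod at 6 h, against 85.9, 78.4 and 80.7 CPM with vehicle, and 122, 114 and 117 CPM at 16 h, against 104, 99.0 and 110.3 CPM. Both genes were higher with no overlap at each time, by log2 1.83 and 0.84 for Trim12c and by 1.09 and 0.17 for Trim12a.

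Trim5 moved least in the cluster. It had 27.5, 26.8 and 28.1 CPM with imiquimod at 6 h, against 19.5, 16.7 and 18.1 CPM with vehicle, with no overlap and an edgeR log2 fold change of 0.60 (SE 0.082, adjusted p = 4.24e-10). At 16 h it had 25.9, 22.5 and 23.6 CPM with imiquimod, against 22.1, 23.4 and 22.4 CPM with vehicle, and the groups overlapped. Trim5 shares 12.4% of its 75-base windows with Trim12c. Trim6, whose human counterpart builds free ubiquitin chains that activate the kinase IKK-epsilon, was nearly silent outside 1 group. It had 44, 37 and 30 counts with imiquimod at 16 h, against 1, 1 and 1 counts with vehicle. Over the 3 libraries, 111 counts against 3 gave a ratio of 31.5 (exact 95% interval 10.5 to 155, counting error only). At 6 h the sums were 13 counts with imiquimod, against 1 in the vehicle libraries, and their ratio was 16.1 (2.42 to 684).

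**Figure D2:**
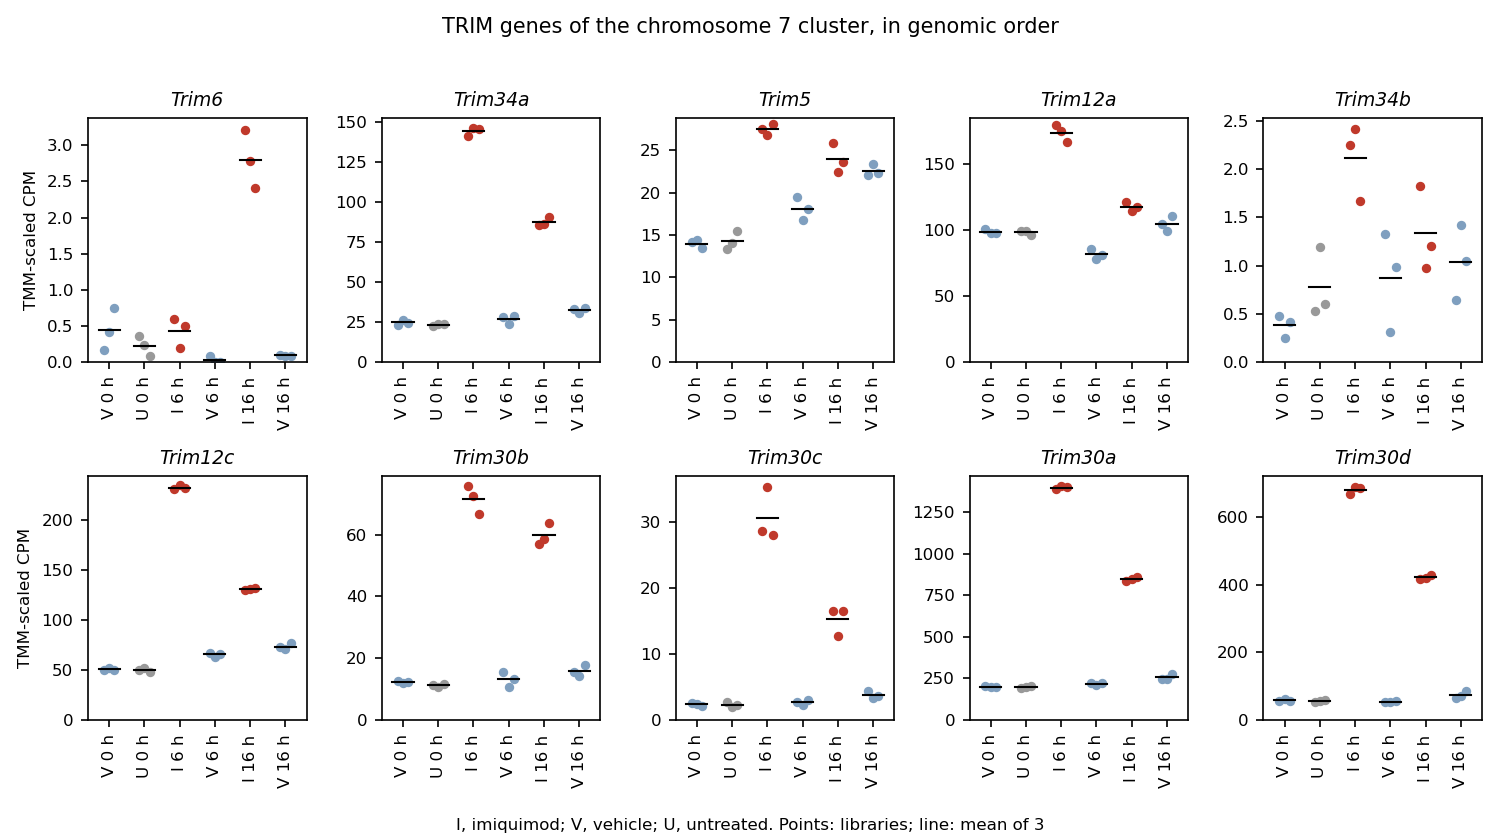
TMM-scaled CPM of the 10 cluster genes in each of the 18 libraries (points) with the mean of each group of 3 (lines), in genomic order; I is imiquimod (red), V vehicle (blue) and U untreated (grey). In 8 panels the highest group is imiquimod at 6 h and the next is imiquimod at 16 h, Trim34b has the same order at a level near 2 CPM, and Trim6 is highest with imiquimod at 16 h.

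**Figure D3:**
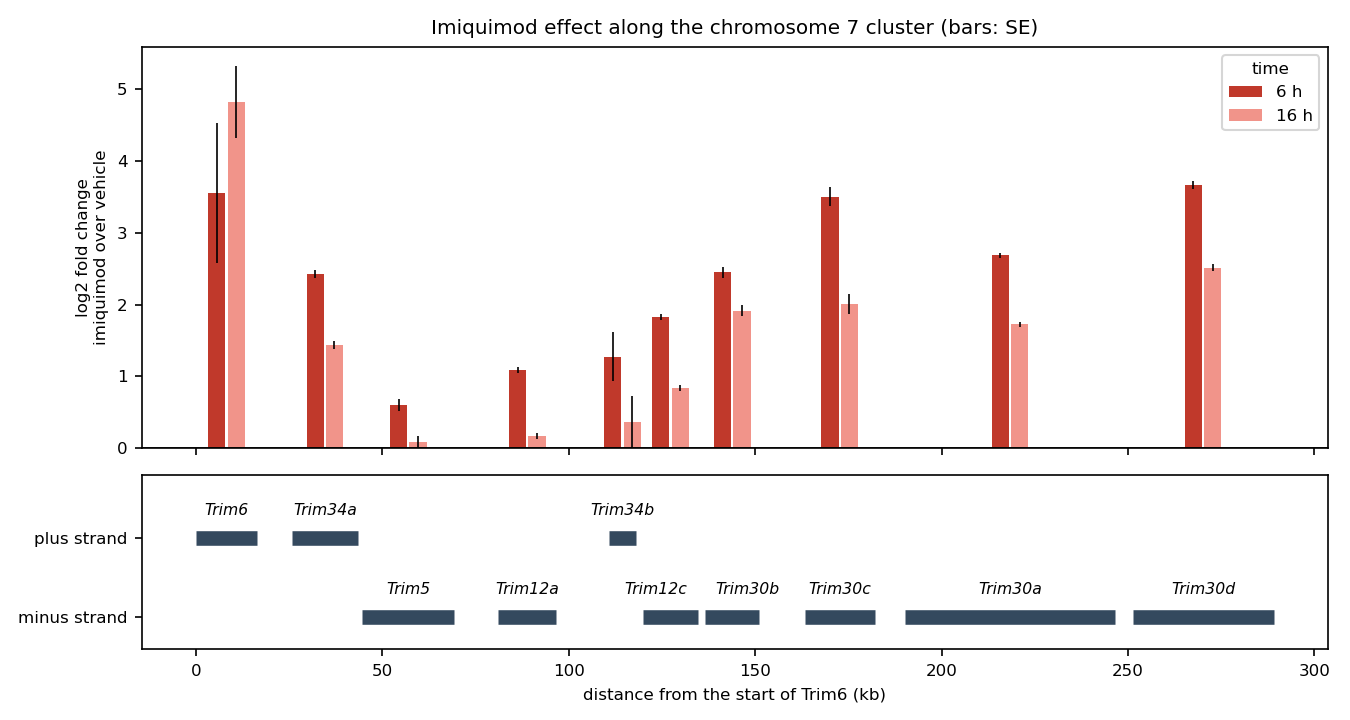
Log2 fold change of imiquimod over vehicle at 6 h (dark) and 16 h (light), with the standard error, along the chromosome 7 cluster, above a map of the genes and their strands by distance in kb from the start of Trim6. Trim30a, Trim30b, Trim30c and Trim30d lie on the minus strand at the far end. Their log2 fold changes are 2.45 to 3.67 at 6 h and 1.73 to 2.52 at 16 h. Trim5 and Trim12a, nearer the Trim6 end, have the lowest at 16 h, while the Trim6 bars rest on 1 and 3 vehicle counts.

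These changes altered the make-up of the family's transcripts. The 68 TRIM genes together held 4811 ± 43.9 CPM with imiquimod at 6 h, against 2260.1 ± 2.54 CPM with vehicle, and 3556 ± 18.2 CPM at 16 h, against 2275 ± 34.4 CPM (SD, n = 3 each). The 10 cluster genes made up 57.4% ± 0.0862 of that sum with imiquimod at 6 h, against 21.2% ± 0.918 with vehicle, and 48.0% ± 0.425 at 16 h, against 25.6% ± 1.35. Trim30a by itself made up 29.0% ± 0.0726 with imiquimod at 6 h, against 9.59% ± 0.326 with vehicle. The 58 genes outside the cluster held 2049.5 ± 19.3 CPM with imiquimod at 6 h, against 1781 ± 22.6 CPM with vehicle, and 1849 ± 12.7 CPM at 16 h, against 1692 ± 7.61 CPM. The sums are in reads, which also depend on gene length. They depend on TMM scaling too, whose factors were 0.817 to 0.837 with imiquimod at 6 h and 1.04 to 1.07 with vehicle at 6 h. The direction of the 6 h difference outside the cluster therefore rests on that scaling. Of the 31 tested genes outside the cluster, 8 were called higher and 18 lower at 6 h.

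**Figure D4:**
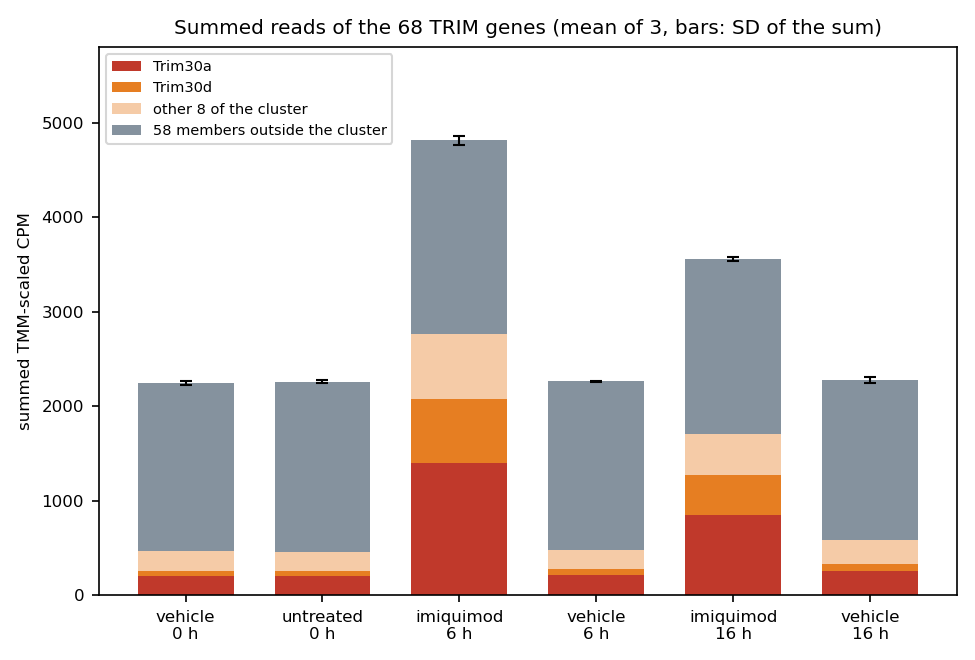
Summed TMM-scaled CPM of the 68 TRIM genes in each group (mean of 3 libraries, bars the SD of the sum), stacked as Trim30a, Trim30d, the other 8 cluster genes and the 58 genes outside the cluster. The bar for imiquimod at 6 h reaches 4811 CPM and that at 16 h 3556 CPM, the vehicle and untreated bars lie between 2239.7 and 2275 CPM, and most of the added height belongs to the cluster.

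Outside the cluster, the members that rose at both times were Trim14, Trim21, Trim25, Trim26, Trim35, Trim43b and Trim56. Trim25, the ubiquitin ligase that activates the RNA sensor RIG-I, had 473, 486 and 473 CPM with imiquimod at 6 h, against 240.4, 245 and 240.0 CPM with vehicle. At 16 h the mean was 250.3 ± 0.344 CPM with imiquimod, against 219 ± 0.616 CPM with vehicle (SD, n = 3 each). The groups did not overlap at either time, but the log2 fold change was 0.98 (SE 0.033, adjusted p = 2.81e-42) at 6 h and 0.19 (SE 0.034, adjusted p = 5.21e-07) at 16 h by edgeR. Trim26, reported to act on the transcription factor IRF3, had 147, 156 and 161 CPM with imiquimod at 6 h, against 57.1, 58.7 and 61.4 CPM with vehicle, and log2 fold changes of 1.39 and 0.45. Trim21, a cytosolic receptor for antibody-coated viruses, and Trim56, a ligase linked to STING and TLR3 signalling, rose by log2 1.10 and 0.67 at 6 h and by 0.55 and 0.34 at 16 h. Trim14, a RING-less member that works with MAVS on mitochondria, rose by 1.35 and 0.71, but 31.3% of its exon length lies opposite Nans, which rose by 0.48 and 1.41. The libraries were directional, and whether the counting used the strand is not given in the sources used here, so reads of that overlap may belong to either gene.

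Trim35, reported to mark IRF7 for degradation in the TLR7 and TLR9 pathway, was the 1 of these 7 members whose effect was called larger at 16 h than at 6 h. It had 139, 139 and 135 CPM with imiquimod at 6 h, against 89.8, 98.0 and 94.3 CPM with vehicle, and 169, 166 and 168 CPM at 16 h, against 82.0, 85.4 and 77.7 CPM. All 6 imiquimod libraries lay above all others. The log2 fold change was 0.55 (SE 0.042) at 6 h and 1.04 (SE 0.042) at 16 h, and the difference of 0.49 (SE 0.06, adjusted p = 3.89e-11) was called by edgeR. Trim27 and Trim44, which were not called at 6 h, rose at 16 h by log2 0.52 (SE 0.053) and 0.12 (SE 0.04). With libraries scaled by their totals, edgeR called both lower at 6 h, with log2 fold changes of -0.40 and -0.30.

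Trim43b (ENSMUSG00000079162.8, chromosome 9, 89084624 to 89092835) belongs to a group of mouse genes known from the preimplantation embryo. It had 43, 48 and 40 counts with imiquimod at 6 h, against 0, 3 and 1 counts with vehicle. At 16 h it had 557, 472 and 482 counts, or 40.7, 35.5 and 38.6 CPM, with imiquimod, against 7, 8 and 12 counts with vehicle. The untreated libraries held 0 counts and those of the vehicle at 0 h 0, 1 and 0. The imiquimod groups thus lay apart from every other library, with log2 fold changes of 5.21 (SE 0.40, adjusted p = 4.45e-20) and 5.56 (SE 0.16, adjusted p = 1.39e-45) by edgeR, fitted values that rest on few counts in the vehicle at 6 h. Trim43b passed the filter only through imiquimod libraries, so it was tested because of the groups where it is high. The near-identical Trim43a and Trim43c, on the same stretch of chromosome 9, had 3 and 5 counts over all 18 libraries. Of the 75-base windows of Trim43b, 20.3% also occur in Trim43a, 18.2% in Trim43c and 8.32% in the non-coding gene 9330159M07Rik, so some reads may have been assigned elsewhere or dropped. 9330159M07Rik held 48.8 CPM with imiquimod at 6 h, against 5.6 CPM with vehicle, and 45.7 CPM at 16 h, against 6.17 CPM.

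**Figure D5:**
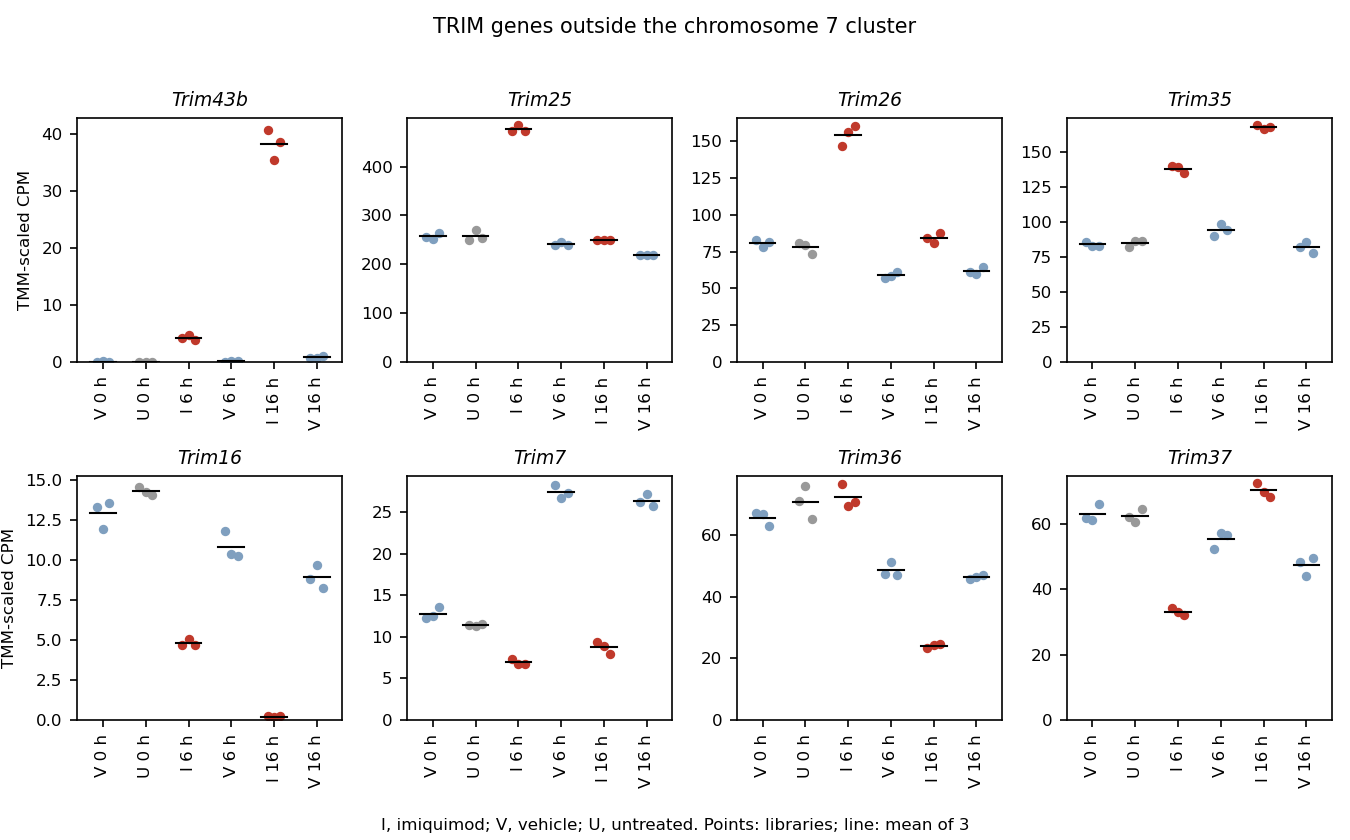
TMM-scaled CPM of 8 TRIM genes outside the cluster in each of the 18 libraries (points) with group means (lines); I is imiquimod (red), V vehicle (blue) and U untreated (grey). Trim43b is near zero except with imiquimod, Trim25 and Trim26 peak with imiquimod at 6 h, Trim35 at 16 h, Trim16 falls to 0.15 to 0.24 CPM with imiquimod at 16 h, Trim7 is highest in the vehicle at 6 h and 16 h, and Trim36 and Trim37 lie on opposite sides of the vehicle at 6 h and at 16 h.

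Of the 14 members lower at both times, Trim16 is described first. Trim16 (ENSMUSG00000047821.16, chromosome 11, 62820231 to 62850808), a RING-less member linked to autophagy of damaged lysosomes, fell at both times. It had 4.71, 5.03 and 4.71 CPM with imiquimod at 6 h, against 11.8, 10.4 and 10.3 CPM with vehicle. The 16 h libraries held 3, 2 and 3 counts with imiquimod, against 96, 109 and 95 counts with vehicle, which is 0.219, 0.15 and 0.24 CPM against 8.82, 9.66 and 8.27 CPM. Every imiquimod library lay below every other library. The log2 fold change was -1.17 (SE 0.14, adjusted p = 2e-12) at 6 h and -5.39 (SE 0.27, adjusted p = 2.83e-31) at 16 h, and the difference was -4.22 (SE 0.36, adjusted p = 9.2e-18) by edgeR. Its exons overlap the same-strand gene Fbxw10 over 5.19% of their length, and Fbxw10, with 3 counts with imiquimod at 6 h against 66 with vehicle and 7 against 65 at 16 h, was lower as well.

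Trim7, a ligase that binds glycogenin, had 7.35, 6.78 and 6.68 CPM with imiquimod at 6 h, against 28.3, 26.7 and 27.3 CPM with vehicle, and 9.36, 8.94 and 7.93 CPM at 16 h, against 26.3, 27.2 and 25.8 CPM. Its log2 fold changes were -1.98 (SE 0.10) and -1.59 (SE 0.092), with no overlap between groups. In the vehicle itself Trim7 was higher at 6 h and 16 h than at 0 h, where the libraries held 12.3, 12.5 and 13.6 CPM, so the gap between imiquimod and vehicle was wider than that between imiquimod and 0 h. Trim65, which ubiquitinates the RNA sensor MDA5, had 13.1, 16.2 and 16.5 CPM with imiquimod at 6 h, against 41.7, 42.0 and 40.9 CPM with vehicle, and 14.5, 16.4 and 13.7 CPM at 16 h, against 41.1, 39.2 and 40.6 CPM. With TMM scaling, its fall was of like size at both times, -1.44 (SE 0.078) and -1.43 (SE 0.075), with a difference of 0.0095 (SE 0.11, adjusted p = 0.956) that edgeR did not call. With libraries scaled by their totals, edgeR called the Trim65 difference, at 0.35 (adjusted p = 0.00566). Trim11, a PRY-SPRY ligase, had 36.3, 35.4 and 36.8 CPM with imiquimod at 6 h, against 91.4, 102 and 88.2 CPM with vehicle, and 48.1, 54.2 and 48.7 CPM at 16 h, against 95.6, 88.3 and 92.6 CPM. It fell by log2 1.38 at 6 h and by 0.87 at 16 h, and the smaller effect at 16 h was called.

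Trim59, a membrane-bound member, and Trim8, which promotes NF-kappaB signalling, fell at both times as well. Trim59 had 28.9, 30.1 and 29.9 CPM with imiquimod at 6 h, against 52.5, 51.7 and 55.2 CPM with vehicle, with log2 fold changes of -0.84 (SE 0.062) and -0.27 (SE 0.064). Trim8 had 37.0, 38.3 and 36.1 CPM with imiquimod at 6 h, against 63.2, 65.5 and 65.2 CPM with vehicle, with log2 fold changes of -0.80 (SE 0.059) and -0.44 (SE 0.058). In both genes the groups stood apart at each time. Trim3, a member with NHL repeats best known in neurons, behaved in the other order. It had 36.3, 32.1 and 34.6 CPM with imiquimod at 6 h, against 43.6, 40.3 and 44.2 CPM with vehicle, and 16.8, 19.7 and 18.8 CPM at 16 h, against 48.5, 52.0 and 51.4 CPM. The fall was -0.32 (SE 0.068) at 6 h and -1.46 (SE 0.071) at 16 h on the log2 scale, and the difference of -1.14 (SE 0.10, adjusted p = 3.82e-17) was called by edgeR.

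Trim45 and Trim46, at most 6.02 CPM in any library, fell at both times, with log2 fold changes of -1.89 and -2.16 at 6 h and -0.49 and -1.03 at 16 h. Trim45 had 1.57, 1.84 and 0.982 CPM with imiquimod at 6 h, against 5.13, 6.02 and 5.25 CPM with vehicle, and 2.7, 2.33 and 2.56 CPM at 16 h, against 3.86, 3.64 and 3.22 CPM. Trim46, known for bundling microtubules in axons, had 1.76, 0.581 and 0.785 CPM with imiquimod at 6 h, against 4.36, 5.48 and 4.19 CPM with vehicle, and 2.12, 2.18 and 1.84 CPM at 16 h, against 4.87, 4.26 and 3.48 CPM. Both groups of imiquimod libraries lay below their vehicle, and the smaller effects at 16 h, 1.40 (SE 0.31, adjusted p = 6.07e-05) and 1.13 (SE 0.36, adjusted p = 0.00496) for the difference, were called by edgeR, the second not without replicate 2 of imiquimod at 6 h (log2 0.84, adjusted p = 0.0506). Trim67, a member of the nervous system, held 3 counts with imiquimod at 6 h, against 34 with vehicle, which is lower by a ratio of 9.16 (exact 95% interval 2.88 to 46.6). At 16 h it held 1 count with imiquimod, against 38 with vehicle, lower by a ratio of 44.6 (7.53 to 1806). Trim47, which was not tested, had 0 counts with imiquimod at 16 h, against 13 with vehicle. That is 5.08-fold lower when the imiquimod group is set to a floor of 3 counts, with no error allowed for the 13 counts. Trim23, Trim24, Trim41 and Trim68 made up the rest of the 14, with log2 fold changes of -1.003 to -0.31 at 6 h and -0.61 to -0.34 at 16 h. The summed marker levels of conventional dendritic cells and monocytes were lower in the same comparisons. However, 2 of the 6 monocyte markers were higher at each time, and 1 of the 6 type 2 markers was higher at 16 h. The part of these cells in the falls was not tested.

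Members that crossed between 6 h and 16 h are given next. Trim36, whose COS box binds microtubules, had 76.7, 69.5 and 70.9 CPM with imiquimod at 6 h, against 47.4, 51.3 and 47.3 CPM with vehicle. By 16 h Trim36 had 23.5, 24.4 and 24.5 CPM with imiquimod, against 45.8, 46.5 and 47.0 CPM with vehicle. It was above every vehicle library of the time at 6 h and below every one at 16 h, with log2 fold changes of 0.57 (SE 0.056) and -0.94 (SE 0.066) and a difference of -1.52 (SE 0.086, adjusted p = 7.57e-27) by edgeR. Trim37, a ligase of centrosomes and peroxisomes, ran the other way. It had 34.2, 33.2 and 32.2 CPM with imiquimod at 6 h, against 52.5, 57.4 and 56.5 CPM with vehicle, and 72.7, 70.0 and 68.4 CPM at 16 h, against 48.3, 44.0 and 49.7 CPM. Its log2 fold changes were -0.74 (SE 0.061) and 0.57 (SE 0.054), without overlap at either time, and the difference was 1.31 (SE 0.082, adjusted p = 1.32e-24) by edgeR. Trim32, an NHL ligase known from muscle, had log2 fold changes of -0.60 (SE 0.15) and 0.29 (SE 0.13) over libraries of 3.79 to 9.06 CPM, the second of them a weak call.

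The branch with PHD and bromodomains acts in the nucleus. Trim28 (KAP1), the corepressor that KRAB zinc finger proteins bring to retroelements, had 179, 179.6 and 184 CPM with imiquimod at 6 h, against 196, 236 and 212 CPM with vehicle. In 16 h libraries Trim28 had 269.7, 260.3 and 258 CPM with imiquimod, against 155, 158 and 161 CPM with vehicle. The groups did not overlap at either time, with log2 fold changes of -0.24 (SE 0.051, adjusted p = 7.64e-05) and 0.73 (SE 0.05, adjusted p = 3.67e-14) by edgeR. The vehicle at 0 h had 235, 216 and 209.9 CPM. Trim24, a cofactor of nuclear receptors, had 61.8, 63.9 and 62.4 CPM with imiquimod at 6 h, against 100.1, 91.7 and 84.4 CPM with vehicle, and 79.2, 77.2 and 79.3 CPM at 16 h, against 119.7, 116 and 123 CPM. It was lower without overlap at both times, by log2 0.55 and 0.61. Trim33, which acts on SMAD4, had 118, 121 and 118 CPM with imiquimod at 6 h, against 115, 106 and 115 CPM with vehicle, and 101, 104 and 102 CPM at 16 h, against 112, 120.1 and 112 CPM. Its log2 fold changes were 0.088 (SE 0.044), not called, and -0.16 (SE 0.043), and at 6 h the direction turned to log2 -0.26 when libraries were scaled by their totals. Trim66 summed to 9 counts with imiquimod at 6 h, against 10 with vehicle, and to 5 at 16 h, against 11, and was not tested.

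Grouped by domain or by known role, the other members split in both directions. Among 23 TRIM genes known to act on the sensing of foreign nucleic acid, 19 were tested, of which 8 rose and 7 fell at 6 h and 11 rose and 7 fell at 16 h, with medians of 0.055 and 0.23. Of the 19, 78.9% were called at 6 h and 94.7% at 16 h, where 76.9% and 77.2% of all tested genes were called. No list was tested as a set, so these counts and the next ones are a description. Of 27 listed members with a PRY-SPRY domain, 16 were tested, and 8 rose and 6 fell at each time (87.5% called). That list does not hold all 10 genes of the chromosome 7 cluster, which were all called higher at 6 h. Its split is therefore that of the listed genes only. Outside the chromosome 7 cluster, that list had 12 tested genes. Of these, 4 rose and 6 fell at 6 h (83.3% called), and 5 rose and 6 fell at 16 h (91.7% called). Of 7 listed genes with a COS box, only Trim36, Trim46 and Trim67 were tested. They were 1 higher and 2 lower at 6 h and all lower at 16 h. Of the RING-less members, Trim14 rose and Trim16 fell at both times and Trim44 rose at 16 h, and of those with NHL repeats Trim3 fell at both times and Trim32 crossed. The lists overlap and were drawn up with earlier results of these data known.

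TRIM genes also differed between times with vehicle alone. Between 6 h and 0 h in vehicle, 16 of the 41 genes were higher at 6 h and 8 lower, where 52.9% of all tested genes were called, 26% higher and 26.9% lower. At 16 h, 21 were higher and 10 lower than at 0 h, against 58.4% of all tested genes, 28.4% higher and 30% lower. Trim7 was among the 3 highest at both times, with 28.3, 26.7 and 27.3 CPM at 6 h and 26.3, 27.2 and 25.8 CPM at 16 h, against 12.3, 12.5 and 13.6 CPM at 0 h, and log2 fold changes of 1.10 (SE 0.084) and 1.04 (SE 0.086). Its groups did not overlap. Trim43b had 27 counts at 16 h, against 1 at 0 h, a ratio of 29.6 (exact 95% interval 4.88 to 1211). Trim32 rose by log2 0.86 (SE 0.15) at 6 h, and Trim34b by 1.17 (SE 0.49) at 6 h and 1.43 (SE 0.48) at 16 h. The Trim34b values were lost at 6 h without any of 4 single libraries, among them replicate 1 of the vehicle at 6 h (adjusted p = 0.28), and at 16 h without replicate 2 of the vehicle at 16 h (adjusted p = 0.0754).

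The lowest in that comparison at 6 h were Trim6, Trim24 and Trim26. Trim6 had 1 count at 6 h, against 16 at 0 h, lower by a ratio of 16.5 (exact 95% interval 2.56 to 691), and 3 counts at 16 h, against 16, lower by a ratio of 4.87 (1.39 to 26.1). The edgeR call for Trim6 at 16 h was lost without replicate 3 of the vehicle at 0 h (log2 -1.55, adjusted p = 0.155). Trim24 had 100.1, 91.7 and 84.4 CPM at 6 h, against 153, 160.5 and 152 CPM at 0 h, and fell by log2 0.75 (SE 0.043), with no overlap. Trim26 had 57.1, 58.7 and 61.4 CPM at 6 h, against 82.7, 78.2 and 81.4 CPM at 0 h, a log2 fold change of -0.45 (SE 0.05). At 16 h, Trim16 had 8.82, 9.66 and 8.27 CPM, against 13.4, 11.9 and 13.6 CPM at 0 h, and Trim36 had 45.8, 46.5 and 47.0 CPM, against 67.2, 67.0 and 63.2 CPM. They were lower without overlap, by log2 0.54 and 0.50. Between vehicle and untreated cells at 0 h, edgeR called 0 of the 41 genes, where 0% of the 14876 tested genes were called. At an unadjusted p under 0.05 there were 5 TRIM genes and 708 genes in all, and DESeq2 called 0 genes, with 0 TRIM genes and 347 genes under that level.

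Genes that work with TRIM proteins and TRIM genes under other names were set beside the family. Of 4 TRIM genes with other symbols, Pml, Mid1 and Mefv, the gene of pyrin, rose by log2 1.74, 1.91 and 2.36 at 6 h and by 0.81, 1.07 and 0.98 at 16 h, and Mid2 was not tested. Of 30 partner genes, 22 rose and 6 fell at 6 h, and 18 rose and 7 fell at 16 h, with median log2 fold changes of 0.60 and 0.29. Over all tested genes, 37.7% were higher and 39.2% lower at 6 h and 39.1% and 38.1% at 16 h, and the medians were -0.037 and -0.0033. The RNA sensor genes Ddx58 (RIG-I, partner of Trim25) and Ifih1 (MDA5, partner of Trim65) rose by 5.595 and 5.64 at 6 h and by 3.93 and 3.63 at 16 h. Trim25 rose beside Ddx58, and Trim65 fell beside Ifih1. Their adaptor Mavs changed by -1.16 and -0.24, and Tmem173, the gene of STING, by -0.51 and -0.77. Among the partners of Trim28, the methyltransferase gene Setdb1 rose by 0.53 and 0.73 and the heterochromatin protein gene Cbx5 by 1.31 and 1.81. Tab2, a target of the Trim30a protein, changed by 0.039, not called, and -0.14.

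Over the 6 group means of log2 CPM, the TRIM genes most like Trim30a were Trim34a (r = 0.999), Trim30c (0.998), Trim30d (0.997), Trim30b (0.992) and Trim12c (0.981), all in the cluster. The least alike were Trim8 (-0.991) and Trim11 (-0.984). Outside the family, tested genes with the highest correlations with Trim30a included Npc2, Specc1l, Crtc2 and Stambp, with r from 0.99886 to 0.99948. These are correlations over 6 group means that share libraries and scaling, given as a description.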

How the data were processed

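Per the labels' protocols, rRNA was removed from total RNA and strand-preserving libraries were read from both ends, 75 nt each. The authors deposited 1 table of raw gene counts, all whole numbers. STAR and the build mm10 are named in the submitters' processing notes. The STAR version, counting program, strand setting and handling of reads with several matches are not given in the sources used here.

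Counts were analysed in edgeR 4.0.16 (R 4.3.3, limma 3.58.1) with the quasi-likelihood model on all 18 libraries, 10609741 to 13447018 counts each, after filterByExpr (minimum count 10) and TMM scaling. Adjusted p-values are Benjamini-Hochberg over 14876 genes within a comparison, with a threshold of 0.05. SE values are the size of the log2 fold change over the root of its F statistic; where few counts give a large change they understate the error. Imiquimod was compared with the vehicle of its time, the effects at 16 h and 6 h with each other, vehicle at 6 h and 16 h with vehicle at 0 h, and vehicle at 0 h with untreated cells. Alternatives were DESeq2 size factors, library totals, no filter, 1 CPM in 3 libraries, a replicate block, only the groups compared, DESeq2 1.42.0, and leaving out each library. The fit was tested on simulated data.

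Gene positions and exon lengths are from GENCODE M21 (GRCm38), where 66 of the 68 TRIM genes matched by versioned identifier and 2 without the version. Promoter windows are from RefSeq (GRCm38.p6). Read sharing was checked as 75-nt windows of the transcripts. Triml1, Triml2 and the pseudogene Trim30e-ps1 do not meet the symbol rule and held 0, 0 and 1 counts.

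The members, lists and comparisons were chosen with earlier results of these data known. Values are given per library for most members chosen by rule, and as sums, maxima or fold changes for some of low level, such as Trim32 and Trim34b. The rule took the 6 highest and 6 lowest called members in each imiquimod comparison whose average across its 6 libraries reached 5 CPM. It also took the 4 highest and 4 lowest for the difference, the 3 highest and 3 lowest for each vehicle comparison, the members near Trim30a and the PHD-bromodomain members. Others named, such as Trim14, Trim21, Trim25, Trim26, Trim35 and Trim56, were chosen after their values were seen. Ratios from 1 to 3 counts carry exact 95% intervals, and a group at 0 was set to a floor of 3 counts, for counting error only. A gene among the genes most like Trim30a is not reported here.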

Additional observations from a re-analysis of the deposited data

Results flagged for a closer look

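The imiquimod effect on 30 TRIM genes differed between 16 h and 6 h by edgeR's test of the difference itself, with adjusted p under 0.05. The values are the log2 fold change at 16 h minus that at 6 h. It was above zero for Trim45 (1.40), Trim37 (1.31), Trim46 (1.13), Trim28 (0.98), Trim32 (0.89), Trim68 (0.65), Trim59 (0.57), Trim27 (0.57), Trim11 (0.51), Trim35 (0.49), Trim7 (0.39), Trim8 (0.36) and Trim23 (0.28). In the chromosome 7 cluster it was below zero for Trim5 (-0.52), Trim30b (-0.54), Trim12a (-0.92), Trim30a (-0.96), Trim12c (-0.99), Trim34a (-0.996), Trim30d (-1.15) and Trim30c (-1.50). Outside the cluster it was below zero for Trim33 (-0.25), Trim56 (-0.33), Trim21 (-0.55), Trim14 (-0.64), Trim25 (-0.79), Trim26 (-0.94), Trim3 (-1.14), Trim36 (-1.52) and Trim16 (-4.22). The values of Trim33 and Trim56 turned sign under scaling by library totals. Under the same scaling, edgeR did not call the values of Trim5 and Trim30b (adjusted p = 0.169 and 0.145). Those of Trim7 and Trim23 were not called by DESeq2 (adjusted p = 0.0667 and 0.0565), nor was that of Trim68 (adjusted p = 0.0538), which edgeR also lost without replicate 1 of imiquimod at 6 h (adjusted p = 0.0627).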

How the results depend on the processing

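Scaling was the choice that moved results most. With library totals in place of TMM, the median log2 fold change of all genes at 6 h was -0.39 in place of -0.037, with 3704 genes higher and 8222 lower, against 5602 and 5837 with TMM. For the difference of the effects the median was 0.33 in place of -0.0063, with 6951 genes higher and 2257 lower, against 4246 and 4222. A turned sign was counted only for results called in the main or the alternative fit. Under that scaling 6 of 205 TRIM results turned sign in this sense: Trim44 (-0.30) and Trim33 (-0.26) at 6 h, and the difference for Trim33 (0.083), Trim56 (0.0093), Trim24 (0.28) and Trim41 (0.23). Counted in the same way, no result turned sign under DESeq2 size factors, no filter, 1 CPM in 3 libraries or the replicate block. None did with only the groups compared or with the DESeq2 Wald test. Sign changes of results called in neither fit were not counted. Counts of called TRIM genes stayed within 1.5 times of those reported under every alternative, except that only 5 genes were lower in vehicle at 6 h than at 0 h when only the groups compared were fitted, where fewer genes were tested.

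With 1 library left out at a time, the TRIM genes called higher and lower numbered 18 to 18 and 18 to 18 for imiquimod at 6 h, 19 to 20 and 14 to 17 at 16 h, 12 to 13 and 17 to 18 for the difference, 16 to 18 and 6 to 8 for vehicle at 6 h, 20 to 21 and 9 to 11 for vehicle at 16 h, and 0 for vehicle against untreated cells at 0 h. The replicate block left these counts at 18 and 18, 20 and 17, 13 and 17, 16 and 8, 21 and 10, and 0, and changed no call of a TRIM gene. Same-numbered libraries did not deviate together (r of -0.073 to 0.040 over 45 pairs, 0 above 0.1), so the numbers were not taken as pairs. Members under about 1 CPM, and the shares of reads that near-identical copies hold, limit what these counts can show.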
